A study of Mus musculus with 8 samples.

Results

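Rpl13a, Ppia and Hsp90ab1 serve protein synthesis and protein folding, and they were taken from the arrays by the names of their probes: CUST_2_PI419532418 for Rpl13a, CUST_10_PI419532418 for Ppia and CUST_6_PI419532418 for Hsp90ab1. They are 3 of 60915 probes in all, and 3 of the 15 genes that could be named through a RefSeq accession in the files. The banded group held 4 arrays of wild-type male C57BL/6J hearts taken 4 weeks after the descending aorta had been tied against a 26-gauge needle, a procedure that raises the pressure load on the heart. The sham group held 4 arrays of hearts taken 4 weeks after a similar operation, for which the labels name no further detail. Both groups shared an age of 8 to 10 weeks, a body weight of 24 to 26 g and pentobarbital anaesthesia, and the labels name no other allele or agent. Each array is labelled as Cy3-labelled RNA of 1 numbered mouse, in 1 colour. Markers of heart cell types were not analysed here, so the labelled tissue was not checked against them. In RNA of a whole heart, fewer cells of a type and less RNA per cell cannot be told apart.

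Ribosomes translate mRNA, and the proteins they release fold with the help of isomerases and chaperones. Rpl13a encodes a protein of the large ribosomal subunit. Ppia encodes cyclophilin A, an abundant cytosolic enzyme that turns peptide bonds next to proline between cis and trans and that binds the drug cyclosporin A. Hsp90ab1 encodes the constitutive cytosolic form of HSP90, a chaperone that uses ATP to hold kinases and steroid hormone receptors in a state ready for activation. Heart muscle cells that enlarge under a pressure load make more protein. All 3 genes are also in common use as reference genes for expression measurements, in which a level that does not change with the treatment is assumed.

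The DNA around the transcription start was looked up for each of the 3 genes and is shown as background. It was not set against the levels on the arrays. Entries for 2 of the 3 genes were found in a RefSeq promoter table of build GRCm38.p6. Each stretch runs from 250 bases before the start to 30 bases after it, 5′ to 3′ on the strand of the gene. That of Rpl13a is chr7:45128716-45128995 on the minus strand, and that of Ppia is chr11:6415617-6415896 on the plus strand. Capitals mark matches on either strand to 4 motifs, which do not overlap here. One is CCAAT, known as a CCAAT box. Another is GGGCGG, known as the GC box. The third is TATAAA, found near many transcription starts. The other is CACGTG, one form of the E-box.
Rpl13a: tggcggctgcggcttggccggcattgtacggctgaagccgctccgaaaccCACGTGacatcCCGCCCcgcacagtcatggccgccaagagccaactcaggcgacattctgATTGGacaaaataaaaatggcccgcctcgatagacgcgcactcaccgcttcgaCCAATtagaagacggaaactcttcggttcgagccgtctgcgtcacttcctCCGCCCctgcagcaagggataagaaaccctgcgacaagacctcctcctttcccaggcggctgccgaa
Ppia: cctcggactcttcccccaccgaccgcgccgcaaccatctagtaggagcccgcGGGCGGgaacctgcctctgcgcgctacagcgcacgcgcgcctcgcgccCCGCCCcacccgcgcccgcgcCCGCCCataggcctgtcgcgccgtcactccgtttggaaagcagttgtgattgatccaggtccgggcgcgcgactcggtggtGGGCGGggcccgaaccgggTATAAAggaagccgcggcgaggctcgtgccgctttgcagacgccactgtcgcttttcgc
The Rpl13a stretch holds 2 matches to CCAAT, 2 to GGGCGG and 1 to CACGTG. The Ppia stretch holds 4 matches to GGGCGG and 1 to TATAAA, which begins 29 bases before the start. Over 32851 promoters of the same length, 36.1% hold a CCAAT box, 34.7% this GC box, 13.1% the third motif and 6.79% this E-box. Of these letters, only GGGCGG is found in both stretches. A match describes the letters and is not a measured binding site.

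The probe of each gene was printed as 20 spots on every array. Over the 8 arrays, 160 of 160 spots lay well above background for each of the 3 genes, and 0 were saturated. Outlier flags removed 5 spots of Rpl13a, 3 of Ppia and 6 of Hsp90ab1. The copies on 1 array had an SD of 0.041 to 0.112 log2 units for Rpl13a, 0.048 to 0.094 for Ppia and 0.039 to 0.071 for Hsp90ab1, so that the mean of the copies had a standard error of at most 0.025. The median processed signal of negative probes was 3.41 to 4.14 units on the banded arrays and 3.35 to 3.84 units on the sham arrays. Levels below are log2 processed intensities relative to the 75th percentile of the probes on the same array. Levels of different probes were not set against each other, since probes differ in brightness.

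The 75th-percentile signal was 143 to 255 units on the banded arrays and 178 to 206 units on the sham arrays. The arrays lay on 1 slide in 2 rows, and each row held both surgery groups. Row 2 held banded 2, banded 3, banded 4 and sham 1, and row 1 held banded 1, sham 2, sham 3 and sham 4. Over 15117 bright probes, each array lay close to 1 neighbour: banded 2 to banded 3, banded 4 to sham 1, banded 1 to sham 2 and sham 3 to sham 4. Banded 1 and sham 2 were the closest of all pairs, at 0.969 times the noise between copies, and sham 3 and sham 4 differed by 0.990 times that noise. Banded 4 and sham 1 differed by 1.17 times it, and banded 2 and banded 3 by 1.34 times. The pairs within 1 group, banded 2 with banded 3 and sham 3 with sham 4, were counted as 1 sample each, which left 3 banded and 3 sham samples. The pairs across groups were kept as separate samples because their labels differ, although a banded and a sham array were as close there as the arrays that were merged. Whether each array holds the mouse and surgery on its label could not be settled from the files, and every banded and sham value below goes by the labels. The 24 pairs of arrays outside these 4 differed by 2.61 to 5.26 times the noise. The p-values measure the spread between these samples only.

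The comparison of banded with sham hearts asks whether transcripts change in a pressure-loaded heart. The estimates of all 3 genes were above 0, and 0 of the 3 passed the threshold of 0.05 on the adjusted p. Over all 35786 probes tested, 0% passed it (limma with Benjamini-Hochberg adjustment), while 726 probes (2.03%) had an unadjusted p below 0.05. With all 8 arrays counted separately, 0 of the 3 genes and 0% of all probes passed, while 2533 probes (7.08%) had an unadjusted p below 0.05. The median log2 difference over all tested probes was 0.01, and its median size was 0.17. In 0 of the 3 genes did the banded and sham arrays stand apart without overlap, against 3.33% of all probes with no overlap in either direction. Without banded 1 and sham 1, the arrays that lie in the row held mostly by the other group, 1003 probes passed and again 0 of the 3 genes. The log2 differences were then 0.81 for Rpl13a, 0.75 for Ppia and 0.21 for Hsp90ab1, with limma adjusted p-values of 0.119, 0.135 and 0.736, and surgery and slide row cannot be told apart in that fit.

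Rpl13a, the ribosomal protein gene, had processed signals of 2675, 3059, 2945 and 3116 units in banded hearts 1 to 4 and of 3111, 2219, 2117 and 2112 units in sham hearts 1 to 4. Relative to the 75th percentile, the log2 levels were 3.39, 4.28, 4.37 and 4.16 in banded hearts and 4.13, 3.43, 3.50 and 3.38 in sham hearts. Banded 1 lay at the level of the lower sham arrays and sham 1 near the other banded arrays, so the groups overlapped. The mean log2 level was 3.96 ± 0.50 (SD, n = 3) in banded hearts and 3.67 ± 0.40 (SD, n = 3) in sham hearts. The ratio of banded to sham was 1.22, with a 95% interval from 0.738 to 2.03 and a limma adjusted p of 0.995. With all 8 arrays counted separately, the ratio was 1.36 (limma adjusted p = 0.586).

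Ppia, the cyclophilin A gene, had processed signals of 49471, 51856, 49288 and 59404 units in banded hearts and of 60321, 40281, 39874 and 40666 units in sham hearts. The log2 levels were 7.60, 8.36, 8.43 and 8.41 in banded hearts and 8.41, 7.61, 7.74 and 7.64 in sham hearts. Again banded 1 was as low as the lower sham arrays and sham 1 as high as the other banded arrays. The mean log2 level was 8.14 ± 0.46 (SD, n = 3) in banded hearts and 7.90 ± 0.44 (SD, n = 3) in sham hearts. The ratio was 1.18, with a 95% interval from 0.709 to 1.95 and a limma adjusted p of 0.995.

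Hsp90ab1, the HSP90 gene, had processed signals of 23509, 16326, 15651 and 13922 units in banded hearts and of 14274, 19289, 13149 and 13332 units in sham hearts. The log2 levels were 6.53, 6.70, 6.78 and 6.32 in banded hearts and 6.33, 6.55, 6.14 and 6.03 in sham hearts. The 2 highest log2 levels were those of banded 2 and banded 3, and the 2 lowest those of sham 3 and sham 4. Each of these is a close pair that counts as 1 sample. Banded 4 lay below sham 1 and sham 2. By processed signal, before scaling, banded 1 and sham 2 were the 2 highest arrays. The mean log2 level was 6.53 ± 0.21 (SD, n = 3) in banded hearts and 6.32 ± 0.23 (SD, n = 3) in sham hearts. The ratio was 1.15, with a 95% interval from 0.826 to 1.61 and a limma adjusted p of 0.995. With all 8 arrays counted separately, the ratio was 1.25 (limma adjusted p = 0.586).

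**Figure D1:**
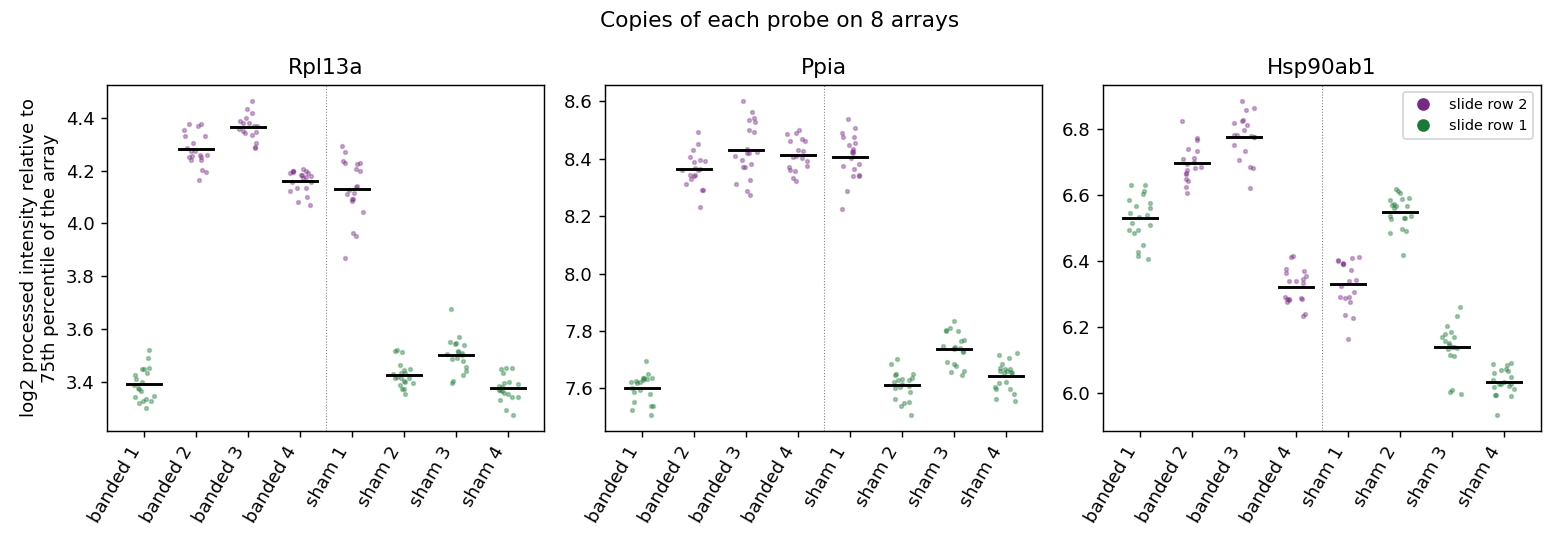
Log2 processed intensity relative to the 75th percentile of the array (vertical axis) on each of the 4 banded and 4 sham arrays (horizontal axis), with 1 panel per gene. Dots are the unflagged copies of the probe, black bars their means, and colour gives the slide row. Rpl13a and Ppia fall into a high and a low set of arrays that cut across surgery, and Hsp90ab1 does not.

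Within slide rows, the surgery estimates of the genes differed in size. In row 2, Rpl13a averaged 4.24 over 2 banded samples, against 4.13 in sham 1, and in row 1 it was 3.39 in banded 1, against an average of 3.43 over 2 sham samples. The log2 differences were 0.11 and −0.04. For Ppia they were −0.0023 in row 2 and −0.05 in row 1, and for Hsp90ab1 0.20 and 0.21. The Hsp90ab1 samples overlapped between the groups in each row. In row 2, sham 1 (6.33) lay between banded 4 (6.32) and the average of banded 2 and banded 3 (6.74). In row 1, banded 1 (6.53) lay between sham 2 (6.55) and the average of sham 3 and sham 4 (6.09). With slide row as a covariate, the ratio of banded to sham was 1.02 for Rpl13a (95% interval 0.793 to 1.32), 0.982 for Ppia (0.768 to 1.26) and 1.15 for Hsp90ab1 (0.822 to 1.62), and the limma adjusted p was at least 0.966 for each. The estimates of Rpl13a and Ppia thus lay closer to 0 within rows than over all samples, and that of Hsp90ab1 was about the same size. Each row has 1 sample on one side of this comparison.

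The close pairs that hold 1 banded and 1 sham array were found by their likeness over the bright probes, the 3 genes included, so small differences within them follow from that choice and are a description, not a test of surgery. Banded 1 minus sham 2 was −0.04 for Rpl13a, −0.0091 for Ppia and −0.02 for Hsp90ab1 on the log2 scale. Banded 4 minus sham 1 was 0.03, 0.0068 and −0.0072. None of these 6 differences exceeded 0.036 in size. The standard errors from the copies ran from 0.015 to 0.027, and the largest difference was 2.09 times its standard error. Copies on 1 array leave out the error between arrays.

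**Figure D2:**
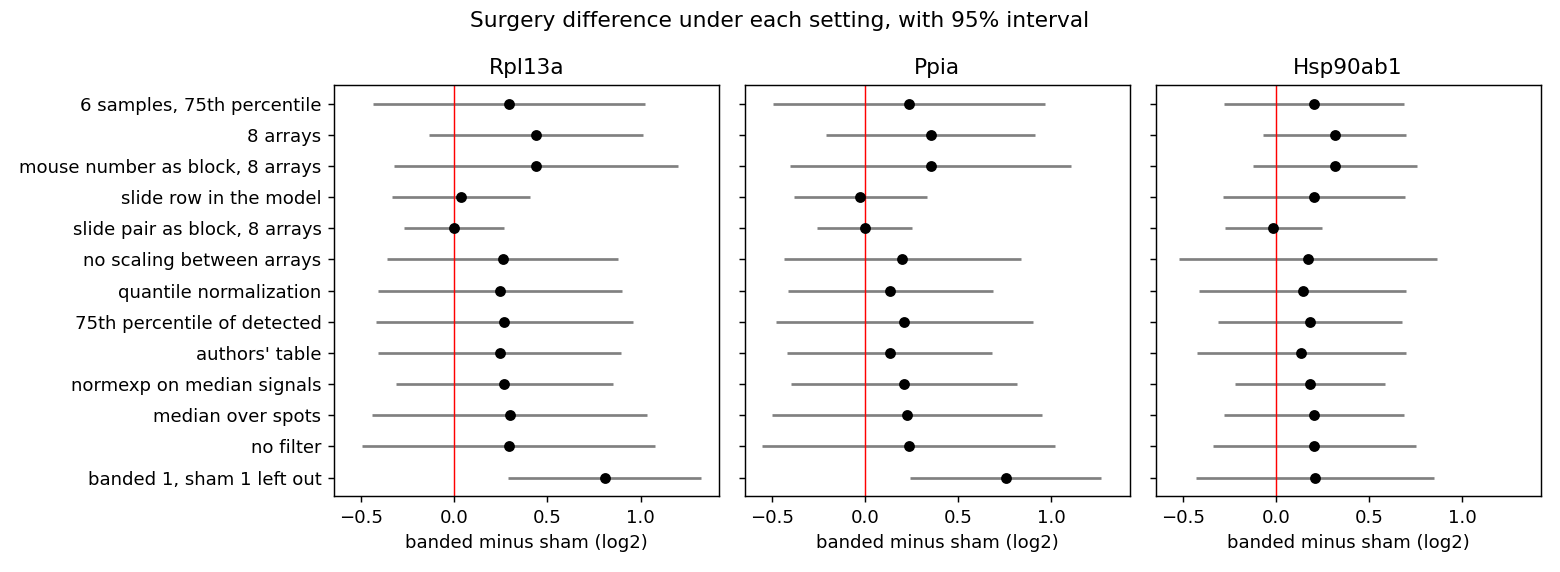
Banded minus sham log2 difference (horizontal axis) with its 95% interval from limma under each way of processing the arrays (vertical axis), with 1 panel per gene. The interval holds 0 in every setting drawn except for Rpl13a and Ppia with banded 1 and sham 1 left out, where the surgery groups coincide with the slide rows and the limma adjusted p was 0.119 and 0.135.

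The slide rows were then compared, since each holds both surgery groups. The rows also hold different labelled mice, so slide and animals cannot be told apart in this comparison. Rpl13a and Ppia were higher in row 2 than in row 1, and Hsp90ab1 did not pass the threshold. So 2 of the 3 genes were called higher, against 8.56% of all probes tested (13.4% in either direction), with the close arrays of 1 group counted once. With all 8 arrays counted separately, Rpl13a and Ppia passed again, at limma adjusted p-values of 0.000998 for Rpl13a and 0.000966 for Ppia, against 12.6% of all probes called higher and 19.7% in either direction. Each close pair lies within 1 row, so that count takes close arrays as separate samples. The 6 samples likewise keep banded 1 apart from sham 2 and banded 4 apart from sham 1. With each close pair counted once, neither gene passed (limma adjusted p = 0.0937 for Rpl13a and 0.108 for Ppia). For Rpl13a the log2 level was 4.13 to 4.37 over the 4 arrays of row 2 and 3.38 to 3.50 over the 4 arrays of row 1. For Ppia it was 8.36 to 8.43 in row 2 and 7.60 to 7.74 in row 1. These 2 genes had no overlap between the rows, a pattern found in the same direction in 16.3% of all probes. The row means of Ppia were 8.41 ± 0.0091 (SD, n = 3) in row 2 and 7.63 ± 0.049 (SD, n = 3) in row 1, and those of Rpl13a 4.21 ± 0.10 (SD, n = 3) and 3.42 ± 0.025 (SD, n = 3). Among these samples, banded 4 and sham 1 in row 2 are a close pair, as are banded 1 and sham 2 in row 1. The SDs thus cannot be read as the spread of 3 independent hearts.

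The ratio of row 2 to row 1 was 1.72 for Rpl13a (95% interval 1.39 to 2.13, limma adjusted p = 0.00921) and 1.71 for Ppia (1.39 to 2.09, limma adjusted p = 0.00830). These calls did not hold without single arrays: without banded 1 the limma adjusted p was 0.0551 for Rpl13a and 0.0523 for Ppia, and without sham 2 it was 0.0513 for both. With each close pair counted once it was 0.0937 and 0.108. Without scaling between arrays it was 0.176 and 0.196. The median log2 difference over all tested probes was 0.01 and its median size 0.27, against 0.78 for Rpl13a and 0.77 for Ppia. Without scaling between arrays the median of all probes was −0.37, and relative to it the genes were at 0.78 and 0.76. Scaling shifts all probes of an array alike, so this likeness follows from the arithmetic and is no further support. The control probes of mouse Pgk1, a glycolytic gene, gave a 3′ minus 5′ log2 difference of 4.39 to 4.53 in row 2 and 3.85 to 4.24 in row 1, and those of mouse Gapdh 0.56 to 0.67 and 0.34 to 0.57. The part of RNA quality or labelling in the row difference was not tested.

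Hsp90ab1 ranged from 6.32 to 6.78 over row 2 and from 6.03 to 6.55 over row 1, so the rows overlapped. Its ratio of row 2 to row 1 was 1.05, with a 95% interval from 0.772 to 1.44 (limma adjusted p = 0.843), and the sign turned with quantile normalization (log2 difference −0.19), in the authors' deposited table (−0.20), with normexp (−0.05) and without scaling (−0.31). Within a row it varied more than the other members, with an SD of 0.24 in row 2 and 0.26 in row 1 (n = 3 each). Its order followed the close pairs: banded 2 and banded 3 were highest, banded 1 and sham 2 followed, then banded 4 and sham 1, with sham 3 and sham 4 lowest. Over the 6 samples its SD was 0.23 log2 units, against 0.44 for Rpl13a and 0.42 for Ppia and a median of 0.29 over all tested probes.

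**Figure D3:**
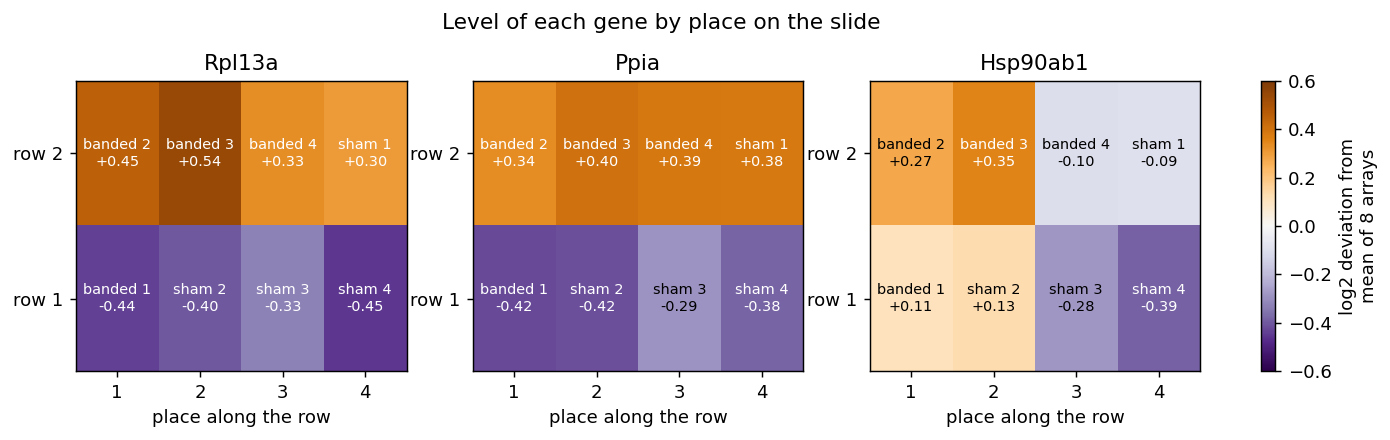
Deviation of the log2 level from its mean over 8 arrays, drawn at the place of each array on the slide (4 places along each of 2 rows), with 1 panel per gene. Rpl13a and Ppia are above their mean in all 4 places of row 2 and below it in all 4 of row 1, while Hsp90ab1 changes along the row.

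The 3 genes were compared with each other through their ratios within each array. Such a ratio is the same with or without a factor that scales the whole array, and its absolute value is not read here, since it depends on the brightness of 2 probes. The log2 ratio of Ppia to Rpl13a was 4.21, 4.08, 4.07 and 4.25 in banded hearts and 4.28, 4.18, 4.24 and 4.27 in sham hearts. Its highest and lowest arrays thus differed 1.16-fold. The log2 ratio of Hsp90ab1 to Ppia was −1.07, −1.67, −1.65 and −2.09 in banded hearts and −2.08, −1.06, −1.60 and −1.61 in sham hearts, a 2.04-fold range. That of Hsp90ab1 to Rpl13a was 3.14, 2.42, 2.41 and 2.16 in banded hearts and 2.20, 3.12, 2.63 and 2.66 in sham hearts, a 1.97-fold range. The SD over the 6 samples was 0.074 for Ppia to Rpl13a, 0.46 for Hsp90ab1 to Ppia and 0.44 for Hsp90ab1 to Rpl13a.

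Between banded and sham hearts the ratios differed by −0.06 log2 units for Ppia to Rpl13a (exact permutation p = 0.6), −0.09 for Hsp90ab1 to Rpl13a (p = 0.8, exact) and −0.03 for Hsp90ab1 to Ppia (p = 0.7, exact). Between row 2 and row 1 the ratio of Hsp90ab1 was lower in row 2, by a log2 difference of −0.71 to Rpl13a and of −0.70 to Ppia. All 3 samples of row 2 lay below all 3 of row 1 for both ratios. The exact two-sided permutation p was 0.1 for each, the smallest that 20 assignments allow, and 0.3 after adjustment over 6 tests, so this design cannot reach 0.05. For Hsp90ab1 to Ppia the rows overlapped after quantile normalization and in the authors' deposited table (exact permutation p = 0.2 in each). With all 8 arrays counted separately, the differences were −0.59 to Rpl13a and −0.54 to Ppia. Each had an exact permutation p of 0.0286, the smallest that 70 assignments allow, and 0.0857 after adjustment. That count treats the close arrays as separate samples. With each close pair counted once the differences were the same, and the exact permutation p was 0.333 for each, the smallest that 6 assignments allow. Ppia to Rpl13a differed by −0.01 between rows (exact permutation p = 1). After quantile normalization, which does not act on the array as 1 factor, this difference was −0.18 (p = 0.1, exact).

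The ratio of Hsp90ab1 to Ppia was alike within each close pair. It was −1.67 and −1.65 in banded 2 and banded 3, −2.09 and −2.08 in banded 4 and sham 1, −1.07 and −1.06 in banded 1 and sham 2, and −1.60 and −1.61 in sham 3 and sham 4. Close pairs were found from all bright probes, these included, so their likeness here is a description and no test.

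**Figure D4:**
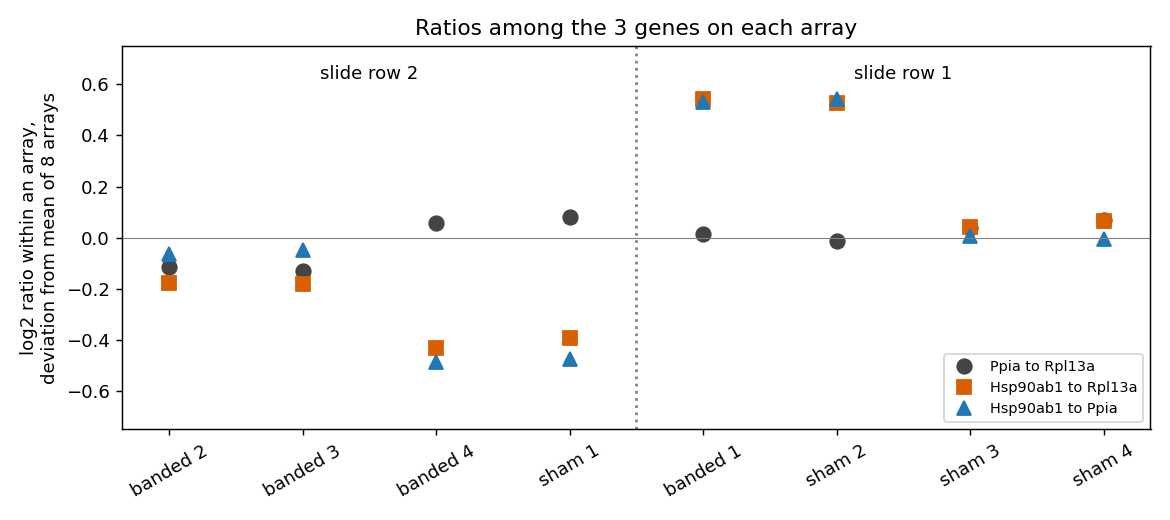
Log2 ratio within each array as a deviation from its mean over 8 arrays (vertical axis) for the 3 pairs of genes (symbols), with the arrays in slide order, row 2 on the left and row 1 on the right. Both Hsp90ab1 ratios lie lower in row 2 and step between close pairs, while Ppia to Rpl13a stays within a 1.16-fold range.

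Other named genes were ranked by the SD of their log2 ratio to each member over the 6 samples, among 11 genes well above background on all arrays. Closest to Ppia were Tuba1b (SD 0.072), which encodes an alpha-tubulin, and Hprt (0.12), which encodes an enzyme of purine salvage. The same 2 genes were closest to Rpl13a, with SDs of 0.10 and 0.14. Only Ppia itself was closer to Rpl13a than Tuba1b was. Closest to Hsp90ab1 were Nono (0.26), which encodes an RNA-binding nuclear protein, and Tbp (0.28), which encodes the TATA-binding protein. The median SD over the 11 genes was 0.25 to Ppia, 0.24 to Rpl13a and 0.37 to Hsp90ab1. These values describe 6 samples that share a slide and fall into 2 rows, so no correlation over them is given.

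**Figure D5:**
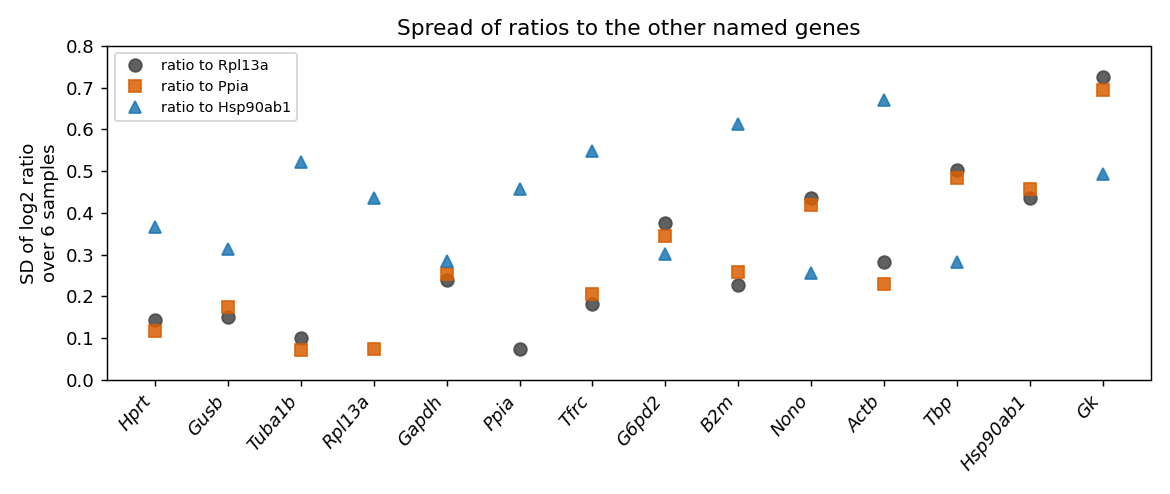
SD over 6 samples of the log2 ratio between a named gene (horizontal axis) and each of Rpl13a, Ppia and Hsp90ab1 (symbols). Low values mean that 2 genes kept their ratio, as Ppia did with Rpl13a (0.074) and with Tuba1b (0.072).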

How the data were processed

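RNA of 4 banded and 4 sham mouse hearts was hybridised to 1-colour arrays. Processed spot intensities came from Agilent Feature Extraction 11.0.1.1, per the file headers, and the headers used here do not spell out its correction steps. The authors' deposited table holds log2 intensities, with a scaling that no source used here describes. Its columns had medians of 4.92 and slopes of 0.984 to 1.02 against the log2 scanner values. It served as an alternative. Log2 processed intensities were averaged over unflagged spots and centred on the 75th percentile. Probes with most spots well above background on at least 4 of 8 arrays were tested with limma 3.58.1 in R 4.3.3 (two-sided, Benjamini-Hochberg over all tested probes). Ratios were tested with two-sided exact permutation tests. Both procedures were checked on simulated data. The number of arrays limits the precision. Normexp was run on median spot signals, since mean spot signals were not analysed here. Names came from RefSeq accessions in the files, of which all 15 matched. Described were the 3 members and, for each, the 2 other named genes with the smallest SD of the log2 ratio. For the slide rows, the other named genes well above background on all arrays were listed too. The members and lists were chosen with earlier results of these data known. Lists of ribosomal, chaperone and cell type genes were not analysed here. Alternatives covered scaling, background, filter, blocks and single arrays. Plots were drawn with matplotlib 3.10.9 in Python 3.11.15.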

Additional observations from a re-analysis of the deposited data

Results flagged for a closer look

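Among 12 groups of 4 arrays (the 3 genes and their 3 ratios, in banded and in sham hearts), in 3 the highest or lowest array was separated from its nearest neighbour by a gap that took up most of the range, past Dixon's critical ratio for 4 values. Chance gives about 1 in 20 groups of independent values, and that share does not hold here, because arrays lie in close pairs and the 12 groups share arrays and genes. Ppia was lowest in banded 1, at a log2 level of 7.60, where the next banded array was at 8.36. Ppia was highest in sham 1, at 8.41, where the next sham array was at 7.74. Rpl13a was highest in sham 1, at 4.13, where the next was at 3.50. Banded 1 is the banded array of slide row 1, and sham 1 the sham array of slide row 2. The groups of Hsp90ab1 and of the ratios held 0 such arrays.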

How the results depend on the processing

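In the surgery comparison, 0 of the 3 genes passed the threshold in any setting run. With slide row as a covariate, the log2 difference of Ppia turned to −0.026, and the ratios of Hsp90ab1 turned to 0.17 (to Rpl13a) and 0.23 (to Ppia). With the slide pair as a block, the differences were −0.0024 for Rpl13a, −0.0012 for Ppia and −0.014 for Hsp90ab1, and 0.0012 for Ppia to Rpl13a. Only the close pairs that hold 1 banded and 1 sham array inform that fit. They were picked for their likeness, so small differences follow from that choice. The ratio of Hsp90ab1 to Ppia turned to 0.0089 under quantile normalization, and to 0.0036 in the authors' deposited table. The count of probes past the threshold was 1 with the slide row, 1 without scaling, and 1003 without both banded 1 and sham 1, where surgery and row coincide. Without 1 array, the surgery differences ran from 0.17 to 0.58 (Rpl13a), 0.09 to 0.50 (Ppia) and 0.19 to 0.32 (Hsp90ab1), the ratios from −0.10 to −0.04 (Ppia to Rpl13a), −0.37 to 0.15 (Hsp90ab1 to Rpl13a, above 0 without banded 4, at 0.12, and without sham 2, at 0.15) and −0.30 to 0.23 (Hsp90ab1 to Ppia, above 0 at 0.21 and 0.23 without the same arrays), and the count stayed at 0. Between rows, Rpl13a and Ppia did not pass without scaling (0.40 and 0.39) or with each close pair counted once (0.81 and 0.76). Hsp90ab1 turned to −0.31 without scaling, −0.19 with quantile normalization, −0.20 in the authors' table and −0.053 with normexp, where Ppia to Rpl13a was 0.0062. Without 1 array, the row differences ran from 0.76 to 0.82 (Rpl13a) and 0.76 to 0.79 (Ppia), lost for both without banded 1 (0.77 and 0.76) or sham 2 (0.79 and 0.76), from 0.06 to 0.15 (Hsp90ab1), and for the ratios from −0.05 to −0.0075 (Ppia to Rpl13a), −0.71 to −0.63 (Hsp90ab1 to Rpl13a) and −0.70 to −0.61 (Hsp90ab1 to Ppia). The row count of 4813 (3065 higher, 1748 lower) was 3154 with the slide pair as a random block, 1427 with each close pair counted once, 26599, 26959 and 1506 with arrays centred on Rpl13a, Ppia and Hsp90ab1, and 1801 (without sham 2) to 4847 without 1 array, with 1806 without banded 1, 2875 without banded 4 and 3002 without sham 1. Without scaling it was split into 995 higher and 4858 lower. The causes were not tested. With the mouse number of the labels as a replicate block over 8 arrays, the surgery differences were 0.44, 0.35 and 0.32 with 0 probes past the threshold, and the row differences 0.81, 0.76 and 0.22 with 4618. The deviations of same-numbered mice from their group means correlated at −0.65 to −0.05. Arrays also differ by row and close pair, so these values cannot settle whether same-numbered mice share more than a number. Counts without banded 1 and sham 1, with each close pair once or with arrays centred on 1 gene were chosen after seeing the data.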

Other observations

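Centring each array on 1 of the 3 genes, as in a measurement that uses it as a reference, gave 0 probes past the threshold between banded and sham hearts for each gene (limma, with 334 probes at an unadjusted p under 0.05 for Rpl13a, 246 for Ppia and 923 for Hsp90ab1). Between slide rows it gave 26599 probes past the threshold with Rpl13a (783 higher and 25816 lower in row 2) and 26959 with Ppia (820 higher and 26139 lower), against 1506 with Hsp90ab1 (838 higher and 668 lower). The median of all probes was then −0.78 with Rpl13a, −0.76 with Ppia and −0.07 with Hsp90ab1. Rpl13a and Ppia were higher in row 2, so centring on them moves other probes down there by construction. Centring on Hsp90ab1 brings its spread within rows, an SD of 0.24 in row 2 and 0.26 in row 1, into the other probes. The counts thus do not rank the genes as references.

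Hsp90ab1 stood between 6.53 and 6.78 on the 4 arrays in places 1 and 2 of the rows, and between 6.03 and 6.33 on the 4 arrays in places 3 and 4. These ranges do not overlap, a pattern noticed in the plotted values and not tested. The share of all probes with such a pattern was not computed, and each set of places is made up of whole close pairs. Places 1 and 2 hold 3 of the 4 banded arrays. Rpl13a and Ppia overlapped between these places, at 3.39 to 4.37 and 3.38 to 4.16 for Rpl13a and at 7.60 to 8.43 and 7.64 to 8.41 for Ppia.

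Between sham 3 and sham 4, the log2 difference after scaling was 0.13 for Rpl13a, 0.10 for Ppia and 0.10 for Hsp90ab1, which is 5.62 to 6.78 times the standard error from the copies. Before scaling it was 0.0035, −0.03 and −0.02, and the 75th percentile itself differed by −0.12. Between banded 1 and sham 2 the order was the opposite: 0.27, 0.30 and 0.29 before scaling, and −0.04, −0.0091 and −0.02 after it.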
